A study of Mus musculus with 10 samples.

Results

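The epidermal differentiation complex is a cluster of genes for proteins of the outermost skin layers, and the genes described here are its envelope genes without the S100 genes. They are the protein-coding GENCODE M21 genes named Lce or Sprr with a digit, together with Flg, Flg2, Hrnr, Rptn, Crnn, Lor, Ivl, Kprp, Crct1 and Tchhl1, which gave 46 genes of the 49671 gene IDs in each library. All 46 lie on chromosome 3 of mm10, between 92080271 and 93471980, a span of 1392 kb that runs from Lor to Tchhl1. Poly(A) RNA of whole skin was sequenced from mice aged 22 weeks of the strain B6;129S4-Npytm2Rpa/J. The first group, NPYtet, held 5 homozygous mutants (tet/tet at Npy, the gene of neuropeptide Y), and the second, WT, held 5 wildtype siblings (+/+). The labels name no further allele or agent for either group, and describe the mutants as overexpressing Npy in the series title. Libraries labelled female were WT replicates 1 and 3 and NPYtet replicates 1, 3 and 4; those labelled male were WT replicates 2, 4 and 5 and NPYtet replicates 2 and 5. Sex is therefore unevenly spread over the genotypes, and each fit held both terms.

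The cornified envelope is a shell of proteins that replaces the membrane of a keratinocyte as it dies and becomes part of the outer barrier of skin. Involucrin and other scaffold proteins are laid down first, loricrin is then added in bulk, small proline-rich proteins (SPRR) act as cross-bridges, and late cornified envelope proteins (LCE) are added last, all joined by transglutaminases. Filaggrin and its relatives of the fused-type S100 family bundle keratin filaments in the same cells. The Lce1 genes and filaggrin belong to normal, constitutive differentiation, whereas Sprr genes and the Lce3 group are known as genes that keratinocytes switch on after injury or in inflamed skin. In the account below, the constitutive side is the 14 Lce1 genes with Flg and Flg2 (16 genes), the stress side is the 11 Sprr2 genes, Sprr1a, Sprr1b, Sprr3, Sprr4 and the 6 Lce3 genes (21 genes), and the other 9 genes belong to neither.

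The promoters of both sides are shown first, so that the sequences before the start of members compared below can be read side by side. RefSeq windows on GRCm38.p6, the assembly of mm10, were found for 42 of the 46 genes, each covering 250 bases before to 50 after the annotated start, and the bases before the start are printed 5′ to 3′ on the strand of the gene. Capitals mark 2 motifs searched on both strands: TGANTCA, the site of AP-1 (dimers of Fos and Jun proteins), and TATAAA, the TATA box. Sprr2e, Sprr2f and Sprr1a stand for the stress Sprr genes, Lce3d for the stress Lce genes, Lce1m for the constitutive Lce genes, and Lor for the abundant shell protein. Sprr2e lies at chr3:92351893-92352142 and Sprr2f at chr3:92364937-92365186 on the plus strand, Sprr1a at chr3:92485882-92486131 on the minus strand, Lce3d at chr3:92957140-92957389 on the plus strand, and Lce1m at chr3:93019062-93019311 and Lor at chr3:92083143-92083392 on the minus strand.
Sprr2e: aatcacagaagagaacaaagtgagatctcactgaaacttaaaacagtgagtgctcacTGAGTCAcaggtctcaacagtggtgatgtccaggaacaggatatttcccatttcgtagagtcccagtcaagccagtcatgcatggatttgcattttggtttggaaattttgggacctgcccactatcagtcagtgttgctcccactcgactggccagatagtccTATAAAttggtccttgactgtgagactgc
Sprr2f: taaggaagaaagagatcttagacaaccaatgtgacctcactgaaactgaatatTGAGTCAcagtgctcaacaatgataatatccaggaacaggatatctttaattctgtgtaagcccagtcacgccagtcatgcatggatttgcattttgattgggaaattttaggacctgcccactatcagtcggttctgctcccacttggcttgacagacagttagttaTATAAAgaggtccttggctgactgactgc
Sprr1a: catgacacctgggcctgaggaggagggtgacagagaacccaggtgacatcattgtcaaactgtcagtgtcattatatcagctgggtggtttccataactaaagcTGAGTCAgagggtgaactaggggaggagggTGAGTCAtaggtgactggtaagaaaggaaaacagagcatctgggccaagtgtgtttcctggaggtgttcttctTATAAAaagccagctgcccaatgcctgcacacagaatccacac
Lce3d: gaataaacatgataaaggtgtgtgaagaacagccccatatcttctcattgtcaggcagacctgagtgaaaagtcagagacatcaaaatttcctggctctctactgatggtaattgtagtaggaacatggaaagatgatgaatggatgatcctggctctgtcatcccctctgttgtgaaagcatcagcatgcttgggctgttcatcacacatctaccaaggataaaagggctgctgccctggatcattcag
Lce1m: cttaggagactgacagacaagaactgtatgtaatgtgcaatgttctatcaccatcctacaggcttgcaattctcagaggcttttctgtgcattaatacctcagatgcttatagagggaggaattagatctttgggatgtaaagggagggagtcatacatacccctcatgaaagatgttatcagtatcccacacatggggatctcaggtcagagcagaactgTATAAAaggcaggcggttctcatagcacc
Lor: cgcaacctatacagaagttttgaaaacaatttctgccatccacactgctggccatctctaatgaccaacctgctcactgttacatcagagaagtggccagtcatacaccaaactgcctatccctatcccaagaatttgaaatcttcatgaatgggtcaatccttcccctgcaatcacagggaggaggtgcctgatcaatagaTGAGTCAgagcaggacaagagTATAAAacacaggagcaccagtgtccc

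The AP-1 letters were present in 16 of 42 envelope gene windows, against 7.81% of all 32851 RefSeq windows of the same length outside chromosome 18. They were found in 7 of 10 Sprr2 windows, the first copy beginning at -193 to -198 relative to the start, in Sprr1a (2 copies) and Sprr1b, in Lor and Ivl, and in 5 of 6 windows of the filaggrin family. In contrast, 0 of 13 Lce1 windows and 0 of 6 Lce3 windows held them. Both the constitutive Lce1 group and the stress Lce3 group thus lacked these letters in this window, while Sprr2, Lor and filaggrin genes of different sides carried them. TATAAA was present in 20 of 42 windows, against 13.6% of all windows, including 7 of 10 of Sprr2 and 2 of 13 of Lce1. The other motifs searched were TTCNNNGAA (STAT factors) in 3 of 42 windows against 8.3%, GGGNGGG (Krüppel-like factors) in 6 of 42 against 48.1%, and CCGGAAG (ETS factors) in 0 of 42 against 8.86%. None of these motifs contains another. Some windows of the same gene group are alike, so the counts are not of independent promoters. Ungapped identity was 100% between Sprr2a1 and Sprr2a2, 88% between Sprr2d and Sprr2e, and 86% between Lce1g and Lce1i. A match is a description of letters and was not tested for binding.

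Before the members, the targeted gene was read in every library. Npy stood at 1.39, 2.86, 0.0941, 1.32 and 2.17 CPM (counts-per-million of the TMM-scaled library size) in WT replicates 1 to 5 and at 96.2, 244, 166, 130 and 485 CPM in NPYtet replicates 1 to 5, so that the groups did not overlap (log2 fold change 7.45, SE 0.617, edgeR's Benjamini-Hochberg adjusted p = 0.000109). Library totals ran from 23209405 to 53357695 reads. Some libraries stood apart. NPYtet replicate 5 had 9.27% mitochondrial reads, against 1.86% to 3.03% in the others. Reads at ribosomal loci (genes of the rRNA biotype with the locus Gm26917) made up 4.71% in NPYtet replicate 5 and 1.83% in WT replicate 2. The other 8 libraries had 0.244% to 0.444%. In NPYtet replicate 1, labelled female, Xist had 2 reads and the Y-linked Ddx3y 1513 reads, which goes against its label. The label was kept, and results are given without these libraries where it matters. The summed level of 18 hair shaft and inner root sheath genes ran from 315.5 to 27640 CPM in WT and from 27.1 to 15460 CPM in NPYtet. Keratinocyte markers were present throughout: suprabasal markers summed to at least 5667 CPM and basal markers to at least 7611 CPM in every library.

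Envelope genes together took 0.504% to 1.04% of the reads of a library. Levels within this group spanned several orders of magnitude. Per kb of the union of annotated exons, Lor was the most abundant at a mean of 1997 CPM per kb, followed by Sprr1a at 986, Crct1 at 754, Lce1m at 592 and Sprr4 at 565. Among the other Lce1 genes, the mean level per kb ran from 10.9 (Lce1g) to 224 (Lce1a2). Flg and Flg2 are left out here, since the union of their annotated exons, at 18829 and 20803 bases, is long and would make their level per kb too low to compare. Sprr4 has only 231 annotated bases, against 806 for Sprr1a, which raises its level per kb. Its mean also includes 532 CPM in NPYtet replicate 5, against at most 173 CPM in any other library, so its place in this order is uncertain. The Lce3 genes that passed the filter on low counts had 1.32 to 7.61 CPM per kb, each below the Lce1 gene of lowest level. In all, 37 of 46 envelope genes passed the filter. The 9 that did not were Sprr2a1, Sprr2a2, Sprr2b, Sprr2i, Sprr2j-ps, Sprr2k, Sprr3, Lce3b and Lce3e, all of the stress side, and Sprr3 had 0 reads in all 10 libraries. With these left out, 16 of 16 constitutive and 12 of 21 stress genes were tested.

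**Figure D1:**
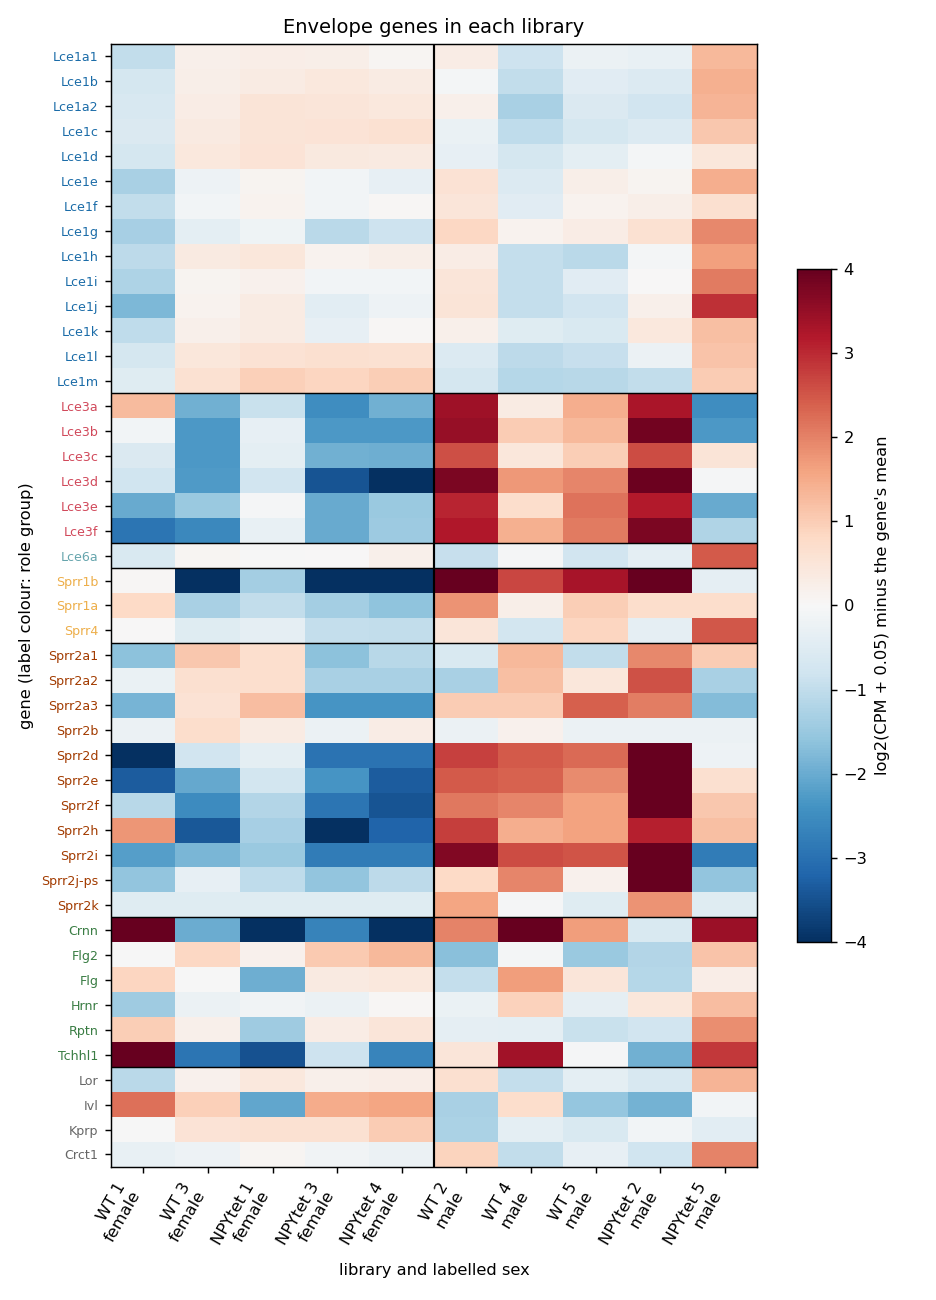
Level of the 45 envelope genes with at least 1 read in each library, as log2(CPM + 0.05) minus the mean of the gene over 10 libraries (red above, blue below its mean); rows are genes with label colours and black lines for role groups, and columns are libraries ordered by labelled sex. Most Lce3 and Sprr rows are red in the libraries labelled male other than NPYtet replicate 5 and blue in most labelled female, whereas the Lce1 rows span a smaller range and are reddest in NPYtet replicate 5.

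The comparison of the genotypes asks whether the mutants' skin holds more or less envelope gene RNA. No envelope gene differed between NPYtet and WT past the threshold: edgeR's quasi-likelihood test called 0 of 37, against a background of 0.00554% of 18060 genes (1 gene, Npy), and DESeq2 and limma voom also called 0. The fold changes were not evenly spread around 0. Of the 37 genes, 27 were higher and 10 lower in NPYtet, with a median log2 fold change of 0.64 beside -0.01 over all genes tested. At an unadjusted p under 0.05, 8 were higher, against 1.46% of all genes, and 1 was lower, against 2.14%. No gene had genotype groups that did not overlap in CPM, against 0.305% of all genes. The adjusted p was 0.999 for every member in edgeR's test. In bulk skin, fewer cells of a type and less RNA per cell cannot be told apart, here or below.

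Lce1 genes, the constitutive late envelope genes, were the group with the most uniform direction. All 14 were higher in NPYtet, with a median log2 fold change of 0.84, and 7 of them had an unadjusted p under 0.05. The most abundant, Lce1m, stood at 331, 286, 715, 210 and 216 CPM in WT replicates 1 to 5 and at 901, 237, 851, 928 and 943 CPM in NPYtet replicates 1 to 5. Thus 4 NPYtet libraries lay above all WT libraries, while NPYtet replicate 2 lay among them (log2 fold change 1.04, SE 0.383, edgeR adjusted p = 0.999). Lce1l, which had the smallest p, showed the same layout at lower levels, with 31.6, 35.1, 69.8, 24.9 and 27.1 CPM in WT and 76.4, 43.3, 79.7, 77.6 and 112 CPM in NPYtet. Its log2 fold change was 1.02 (SE 0.331, edgeR adjusted p = 0.999). WT replicate 3 was the highest wildtype library and NPYtet replicate 2 the lowest mutant library for both.

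Lce1c had 76.5, 95.8, 146, 57.0 and 71.0 CPM in WT and 164, 78.2, 167, 173 and 241 CPM in NPYtet (log2 fold change 0.84, SE 0.337). Lce1b had 53.5, 81.5, 102, 44.1 and 63.3 CPM in WT and 108, 59.2, 116, 109 and 233 CPM in NPYtet (0.87, SE 0.366). Both repeat the order in which only NPYtet replicate 2 lies within the WT range. Lce1a2, the member of second highest mean among Lce1 genes, had 89.1, 163, 172, 57.5 and 93.9 CPM in WT and 202, 82.5, 195, 188 and 360 CPM in NPYtet, with a log2 fold change of 0.83 (SE 0.404) whose unadjusted p was just over 0.05.

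The less abundant Lce1h, Lce1i and Lce1j looked different. Lce1i had 11.1, 36.2, 27.9, 13.6 and 18.9 CPM in WT and 29.5, 26.3, 24.4, 24.1 and 110 CPM in NPYtet. Lce1j had 4.08, 20.5, 15.8, 7.40 and 8.37 CPM in WT and 17.7, 16.3, 10.7, 12.2 and 109 CPM in NPYtet. Lce1h had 5.63, 14.5, 15.1, 6.01 and 5.58 CPM in WT and 16.2, 11.2, 12.9, 13.7 and 36.8 CPM in NPYtet. For Lce1i and Lce1j, NPYtet replicates 1 to 4 lay inside the WT range, and only NPYtet replicate 5 exceeded it. Their log2 fold changes were 0.96 (Lce1h, SE 0.426), 0.996 (Lce1i, SE 0.434) and 1.41 (Lce1j, SE 0.571).

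Single libraries carried much of this. Without NPYtet replicate 5, all 14 Lce1 genes were still higher in NPYtet, but their median log2 fold change was 0.40 and 1 had an unadjusted p under 0.05. That count was also 1 without WT replicate 1, 2 without WT replicate 5, 3 without WT replicate 4 and 12 without WT replicate 3. Removing WT replicate 2 and NPYtet replicate 5 together left a median of 0.50. Under limma voom, which down-weights libraries of poor quality, 13 of 14 were higher, with a median of 0.31. Within libraries labelled female, all 14 were higher in NPYtet with a median of 0.49, and within those labelled male all 14 with a median of 1.12; neither comparison called an envelope gene (edgeR, against 0% and 0.00554% of all genes).

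Markers of other cell types also differed in direction between the genotypes, each list with 0 genes called by edgeR. All 6 markers of white adipocytes were higher in NPYtet (median 0.81, 2 at an unadjusted p under 0.05), with sums of 732 to 2618 CPM in WT and 1273 to 4987 CPM in NPYtet. All 6 fibroblast markers were higher (median 0.68, 2 at that p), with sums of 11300 to 60400 CPM and 10670 to 73330 CPM. All 18 hair genes were lower (median -4.20, 5 at that p), as were all 5 melanocyte markers (median -3.58, 4 at that p), whose sums ran from 26.9 to 331.5 CPM in WT and from 8.21 to 20.7 CPM in NPYtet. Basal and suprabasal keratinocyte lists had medians of 0.05 and 0.04. The part of these lists in the Lce1 values was not tested.

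Lce6a, a further late envelope gene outside both sides, had 7.80, 6.24, 12.6, 11.7 and 7.09 CPM in WT and 11.98, 9.10, 12.3, 13.8 and 65.2 CPM in NPYtet. The genotype value of 1.23 (log2, SE 0.493) had an edgeR adjusted p of 0.999, and it was 0.21 when this library and WT replicate 2 were removed.

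**Figure D2:**
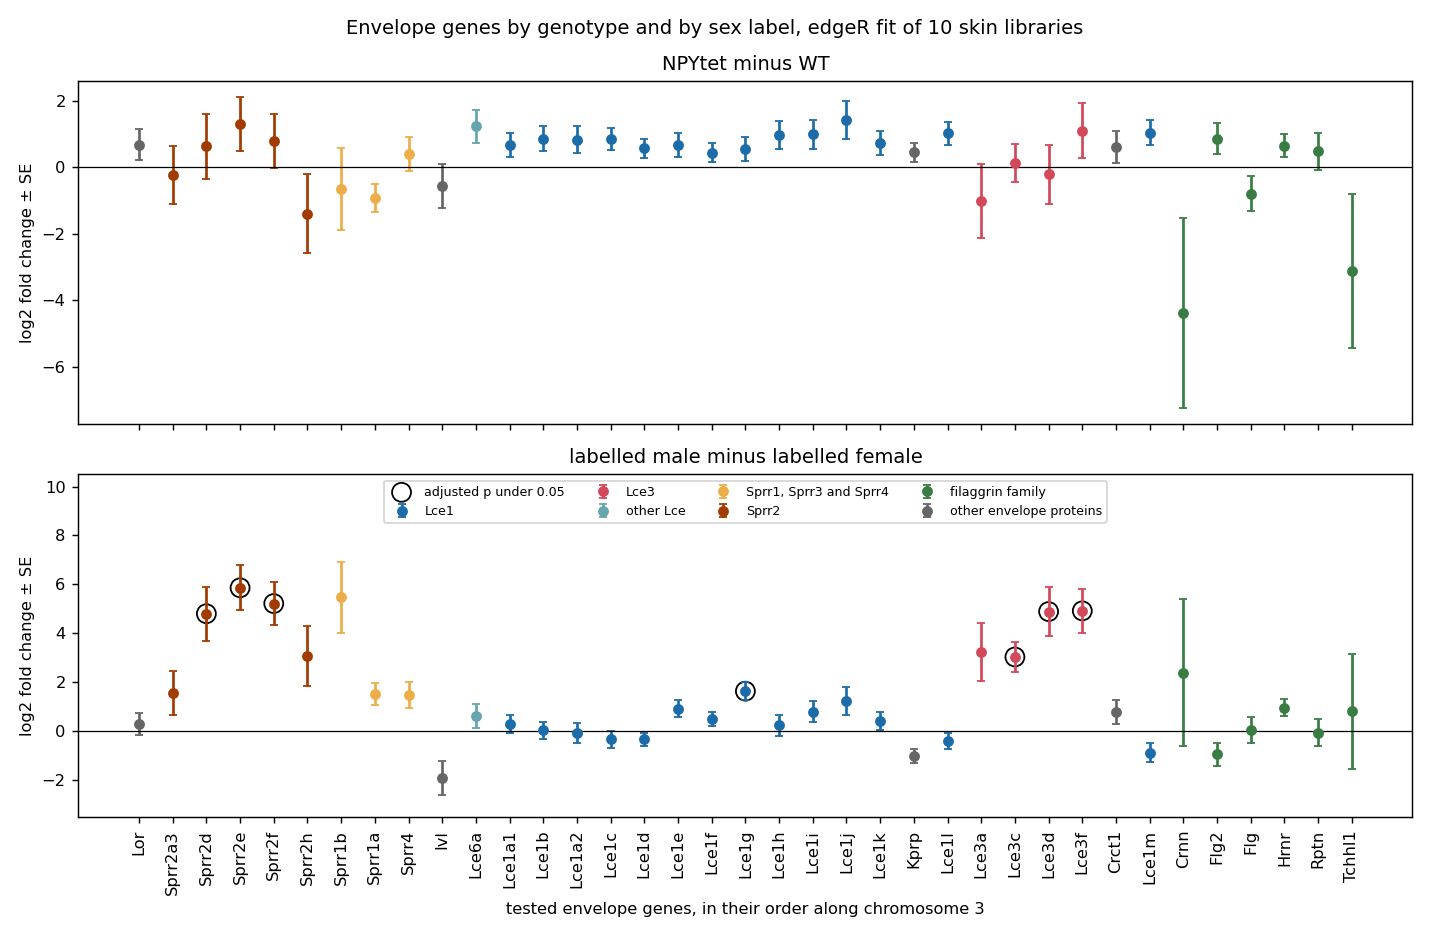
Log2 fold change with its SE of the 37 tested envelope genes, in their order along chromosome 3, by genotype (upper panel, NPYtet minus WT) and by sex label (lower panel, male minus female); colours are role groups and black rings mark an adjusted p under 0.05. The 14 Lce1 points are all above 0 in the upper panel with no ring, and the 7 rings in the lower panel are on 3 Sprr2 genes, 3 Lce3 genes and Lce1g.

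The filaggrin family did not share one direction by genotype: 3 of 6 genes were higher and 3 lower in NPYtet, with a median of -0.16 and none past an unadjusted p of 0.05. Flg2, a filaggrin relative, had 437, 138, 774, 414 and 159 CPM in WT and 491, 195, 900, 1080 and 960.6 CPM in NPYtet (log2 fold change 0.86, SE 0.469). Flg, which encodes the filaggrin precursor, had 200, 56.9, 110, 356 and 154 CPM in WT and 28.3, 50.7, 143, 147 and 133 CPM in NPYtet (-0.79, SE 0.535). The groups overlapped for both, and the constitutive pair thus had fold changes of opposite sign. Hrnr (hornerin) had 41.0, 91.6, 93.0, 206 and 84.6 CPM in WT and 99.1, 152, 92.9, 114 and 259 CPM in NPYtet (0.65, SE 0.339).

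Crnn (cornulin) and Tchhl1 (trichohyalin-like 1) varied more than any other tested member of this family. Tchhl1 had 533, 20.9, 1.90, 152 and 14.4 CPM in WT and 1.28, 3.91, 8.37, 2.36 and 107 CPM in NPYtet. Crnn had 315, 28.1, 1.76, 139 and 22.7 CPM in WT and 0, 4.61, 1.08, 0.298 and 77.2 CPM in NPYtet, where 0 reads in NPYtet replicate 1 allow up to 0.0791 CPM (3 reads of the unscaled total). WT replicates 1 and 4 and NPYtet replicate 5 were the 3 highest libraries for both genes. Their log2 fold changes were -4.38 (SE 2.87) for Crnn and -3.11 (SE 2.31) for Tchhl1, neither with an unadjusted p under 0.05. Hair genes followed a similar but not identical order. The summed hair list stood at 27390, 27640, 315.5, 20110 and 9008 CPM in WT and at 27.1, 1599, 140.4, 55.6 and 15460 CPM in NPYtet. WT replicate 2 had the highest sum but was not among the 3 highest libraries for Crnn or Tchhl1. The part of hair genes in these values was not tested. For Rptn (repetin) the log2 fold change was 0.48 (SE 0.554).

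Among the other envelope proteins, Lor (loricrin) had 1497, 4853, 3561, 1630 and 2400 CPM in WT and 4185, 2002, 3595, 3736 and 8070 CPM in NPYtet, or 2788 ± 1416 and 4318 ± 2254 CPM (SD, n = 5). The difference was within the spread of the libraries (log2 fold change 0.68, SE 0.455). Crct1, a small cysteine-rich protein gene of the cluster, had 399, 918, 427, 249 and 391 CPM in WT and 514, 283, 445, 421 and 1922 CPM in NPYtet (0.62, SE 0.479). Without NPYtet replicate 5 this turned to -0.20, so the direction for Crct1 rests on that library. For Kprp (keratinocyte proline-rich protein) the log2 value was 0.46 (SE 0.282), and for Ivl (involucrin) -0.57 (SE 0.666).

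On the stress side, 6 of 12 tested genes were higher and 6 lower in NPYtet, with a median of -0.04. The 1 gene with an unadjusted p under 0.05 was Sprr1a, the most abundant stress gene, and it was lower. It had 1033, 2089, 242, 708 and 1191 CPM in WT and 303, 973, 233, 196 and 978 CPM in NPYtet. The log2 fold change was -0.92 (SE 0.428, edgeR adjusted p = 0.999), and the groups overlapped, since WT replicate 3 was as low as the low NPYtet libraries. Sprr4 had 96.8, 134, 68.2, 56.7 and 173 CPM in WT and 74.4, 74.3, 48.5, 47.9 and 532 CPM in NPYtet. Its log2 fold change of 0.39 (SE 0.508) was -0.57 without NPYtet replicate 5.

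No Sprr2 or Lce3 gene had an unadjusted p under 0.05 by genotype. Sprr2h, the most abundant Sprr2 gene, had 20.01, 40.7, 0.517, 16.1 and 18.0 CPM in WT and 2.31, 51.6, 0.323, 0.595 and 13.8 CPM in NPYtet (log2 fold change -1.39, SE 1.19). Each group held libraries below 1 CPM and libraries far above it. Lce3f stood at a genotype log2 fold change of 1.10 (SE 0.831), Lce3c at 0.12 (SE 0.569) and Lce3d at -0.21 (SE 0.886). Without NPYtet replicate 2, 10 of 12 stress genes were lower in NPYtet, with a median of -0.92. Without WT replicate 1, 10 of 12 were higher, with a median of 0.59. The direction of the stress side by genotype thus depended on single libraries of either group.

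**Figure D3:**
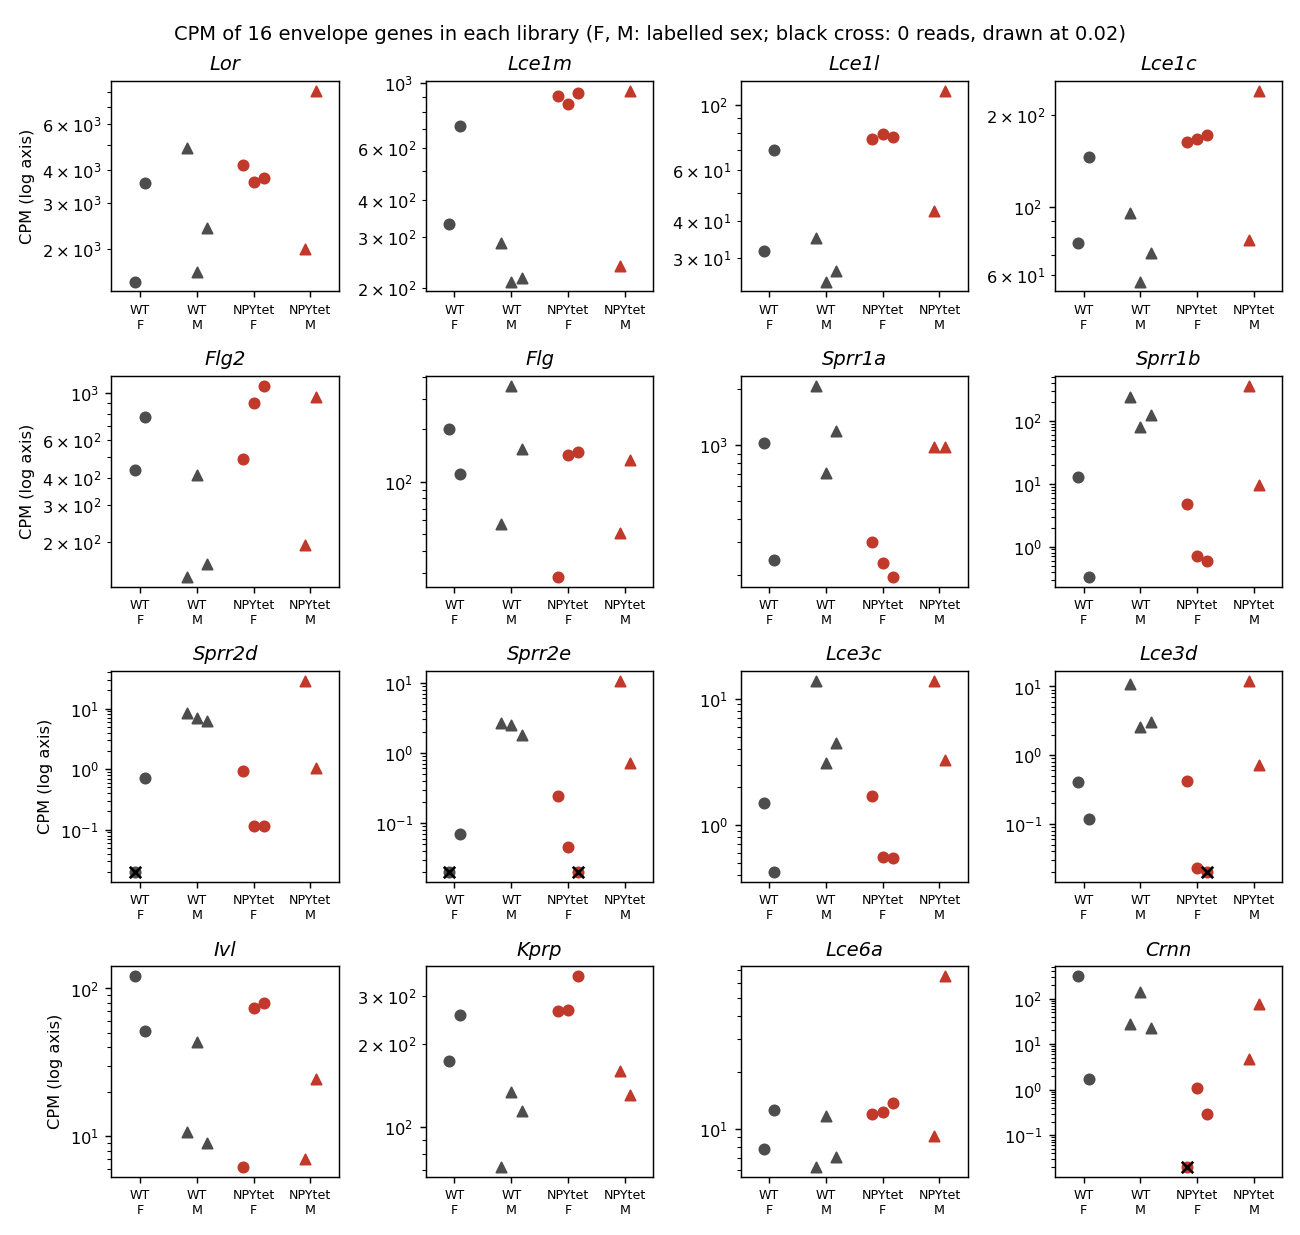
CPM on log axes of 16 envelope genes in every library, grouped by genotype and labelled sex (circles female, triangles male; dark grey WT, red NPYtet; black cross for 0 reads, drawn at 0.02). Lce1m, Lce1l and Lce1c show 4 NPYtet libraries above all WT libraries and 1 among them, and Sprr2d, Sprr2e, Lce3c and Lce3d show every triangle above every circle.

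Between libraries labelled male and female the stress genes differed widely. This comparison comes from the labels, since the study's stated contrast is that of genotype. The 12 stress genes that passed the filter were higher in libraries labelled male, with a median log2 fold change of 4.03 beside -0.07 over all genes, and edgeR called 6 of them. This count and median only describe those 12: Sprr2d, Sprr2e, Sprr2f, Lce3a, Lce3d and Lce3f had under 10 reads in at least 3 of the 5 libraries labelled female and so passed the filter mainly through those labelled male, and the other 9 stress genes were not tested. With Lce1g, 7 of 37 envelope genes were called, all higher, against 2.48% of all genes tested (246 higher and 202 lower). At an unadjusted p under 0.05, 15 envelope genes were higher, against 13.1% of all genes, and 3 lower, against 11.5%. For 6 genes every library labelled male lay above every library labelled female, and for Kprp every one lay below. Over all genes, 8.44% had groups that did not overlap in one direction or the other. These separations are by label. NPYtet replicate 1, whose Xist and Ddx3y reads contradict its female label, lay below every library labelled male for each of the 6. By the sex those reads show, only Sprr2f would lose its separation, with 0.197 CPM in NPYtet replicate 1 and 0.206 CPM in WT replicate 1. For Sprr2d, Sprr2e, Lce1g, Lce3c and Lce3d, NPYtet replicate 1 lay above every other library labelled female. For Lce3d the gap was small, at 0.418 CPM against 0.413 CPM in WT replicate 1.

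Sprr2 genes encode cross-bridging proteins of the envelope and most of their values were near 0 in libraries labelled female. Sprr2e, whose promoter is printed above with its AP-1 letters, had 0, 0.0705, 0.246, 0.0461 and 0 CPM in the libraries labelled female (WT replicates 1 and 3, NPYtet replicates 1, 3 and 4). It had 2.70, 2.48, 1.81, 10.7 and 0.728 CPM in those labelled male (WT replicates 2, 4 and 5, NPYtet replicates 2 and 5). The log2 fold change was 5.86 (SE 0.913, edgeR's Benjamini-Hochberg adjusted p = 0.00751), and a library with 0 reads here allows up to 0.0906 (WT replicate 1) or 0.0817 CPM (NPYtet replicate 4), on the same basis. Sprr2f, in the same order of libraries, had 0.206, 0.047, 0.197, 0.0231 and 0 CPM against 2.33, 2.10, 1.63, 11.5 and 1.13 CPM (5.22, SE 0.884, edgeR adjusted p = 0.0103). Sprr2d had 0, 0.705, 0.935, 0.115 and 0.115 CPM against 8.41, 7.00, 6.17, 28.7 and 1.06 CPM (4.81, SE 1.10, edgeR adjusted p = 0.0498). For all 3 genes NPYtet replicate 2 was the highest library and NPYtet replicate 5 the lowest of those labelled male. Sprr2h, with 3.07 (SE 1.24), and Sprr2a3, with 1.57 (SE 0.886), were higher without passing the threshold.

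Lce3 genes, the stress group of late envelope genes, were also higher in libraries labelled male where tested, without AP-1 letters in their windows. Lce3d had 0.413, 0.118, 0.418, 0.0231 and 0 CPM in libraries labelled female and 10.8, 2.60, 3.03, 12.1 and 0.728 CPM in those labelled male (log2 fold change 4.89, SE 1.01, edgeR adjusted p = 0.0306). Lce3c had 1.497, 0.423, 1.70, 0.553 and 0.55 CPM against 13.8, 3.08, 4.48, 13.8 and 3.24 CPM (3.04, SE 0.606, edgeR adjusted p = 0.0219). WT replicate 2 and NPYtet replicate 2, of different genotypes, were the highest libraries for both. Lce3f had 0.0258, 0.047, 0.418, 0.0922 and 0.16 CPM against 5.23, 1.49, 2.37, 7.70 and 0.199 CPM (4.92, SE 0.892, edgeR adjusted p = 0.0149). Here NPYtet replicate 5 lay below NPYtet replicate 1, so that the groups overlapped. How reads were split among these genes is uncertain, because 28% to 45.6% of the 75-base windows of the Lce3c, Lce3d and Lce3f transcripts occur in other genes too, against 0% to 5.41% for Sprr2d, Sprr2e and Sprr2f.

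Sprr1 genes reached higher levels. Sprr1b had 12.8, 0.329, 4.82, 0.715 and 0.595 CPM in libraries labelled female and 237, 79.4, 122, 359 and 9.66 CPM in those labelled male. Only WT replicate 1 among the first and NPYtet replicate 5 among the second broke the separation, and the gene missed the threshold (log2 fold change 5.48, SE 1.46, edgeR adjusted p = 0.0886). Sprr1a (1.53, SE 0.434, edgeR adjusted p = 0.0739) and Sprr4 (1.48, SE 0.518, edgeR adjusted p = 0.112) missed it too.

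Constitutive genes did not share this difference. Of 16, 10 were higher and 6 lower in libraries labelled male, with a median of 0.14, and 5 were higher when raw library sizes were used for scaling, which moved the median of all genes from -0.07 to -0.46 and that of the constitutive side to -0.34. The direction of the 12 stress genes was the same under every scaling tried, with medians from 3.71 to 4.09. Lce1g was the 1 called constitutive gene, with 3.20, 6.21, 7.23, 3.76 and 4.49 CPM in libraries labelled female and 14.4, 8.84, 9.85, 12.4 and 30.6 CPM in those labelled male (log2 fold change 1.64, SE 0.377, edgeR adjusted p = 0.0365). Lce1m went the other way (-0.87, SE 0.382, edgeR adjusted p = 0.181), as did Flg2 (-0.93, SE 0.469). Kprp had 173, 255, 265, 266 and 354 CPM against 71.6, 134, 114, 160 and 131 CPM, with no overlap but an adjusted p of 0.0714 in edgeR's test (-1.01, SE 0.284). Ivl had 122, 51.5, 6.197, 73.6 and 79.5 CPM against 10.8, 43.4, 9.02, 7.06 and 24.5 CPM (-1.90, SE 0.685, edgeR adjusted p = 0.126). For Ivl the lowest library of those labelled female was NPYtet replicate 1, the library whose Xist and Ddx3y reads contradict its label.

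The count of 7 called genes depended on single libraries. It was 1 without WT replicate 3, 3 without each of WT replicate 2 and NPYtet replicates 2, 3 and 4, and 14 without WT replicate 1. Leaving out a library also changes which genes pass the filter: the 14 are of 40 envelope genes tested then, and 12 of them are among the 37 described here. Without NPYtet replicate 1 the count was 9 of 40 (7 among the 37), and without WT replicate 2 and NPYtet replicate 5 it was 5 of 35. DESeq2 called 14 envelope genes and limma voom 19, each including the 7, against 2316 and 5590 genes over the whole table. Of the 14, 12 were higher in libraries labelled male, and of the 19, 13 were, so both also called genes that were lower. Under limma voom 6 of 16 constitutive genes were called, and of the 16, 6 were higher and 10 lower, with a median of -0.46.

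Other genes moved with the stress side, and their counts are read against the 2.48% of all genes called by sex. Of 4 stress keratins, which wounded and inflamed epidermis makes, 3 were called higher in libraries labelled male: Krt16 (log2 fold change 6.46, SE 0.884), Krt6a (4.66, SE 0.679) and Krt17 (2.34, SE 0.525), with edgeR adjusted p of 0.0047, 0.00536 and 0.0345. Krt16 had 27.9, 39.2, 77.6, 23.04 and 18.2 CPM in those labelled female and 9138, 821, 3330, 4211 and 419 CPM in those labelled male. Of 34 regulators of envelope genes, 3 were called, all higher: Fosl1 and Junb, subunits of AP-1, with 3.85 (SE 0.651) and 2.10 (SE 0.42), and Cebpb, a transcription factor of differentiation, with 1.78 (SE 0.374). Of 7 tested cytokines known to induce stress envelope genes, 3 were called higher, namely Il6 (4.49, SE 0.711), Osm (2.94, SE 0.691) and Il1b (2.71, SE 0.549). Of the 7, 4 were higher and 3 lower, with a median of 0.37, and Il4 was the lowest (-1.43, SE 0.619). Il17a, Il17f, Il22 and Ifng had 0, 25, 2 and 27 reads in all and did not pass the filter. Il36a, Il36b and Il36g were listed but did not match. Of 7 markers of basal keratinocytes, 5 were higher and 2 lower with a median of 0.47, and 1 was called, Krt14 (2.79, SE 0.54), while Krt15 stood at -0.31. The basal list summed to 7611 to 13480 CPM in libraries labelled female and 10570 to 59630 CPM in those labelled male. Hair shaft and inner root sheath genes were higher in libraries labelled male for 18 of 18, with a median of 4.001 and 0 called or at an unadjusted p under 0.05 (edgeR), and summed to 27.1 to 27390 CPM in those labelled female and 1599 to 27640 CPM in those labelled male. Suprabasal markers summed to 7419 to 17720 and 5667 to 12780 CPM, and leukocyte markers to 377 to 735 and 187 to 462 CPM. Of 6 leukocyte markers, 2 were higher and 4 lower in libraries labelled male, and 1 was called, Ptprc, which was lower (-1.56, SE 0.378). Of 12 partners of the cornified envelope, 1 was called, Cnfn (1.84, SE 0.416). Among 9 sebaceous gland genes 1 was called, Elovl3 (1.95, SE 0.391). The part of these in the difference of the stress genes was not tested. Of 13 genes for crosslinking and filaggrin processing, 0 were called by sex, with 6 higher at an unadjusted p under 0.05 (edgeR), against 13.1% of all genes, among them Tgm1, a transglutaminase (1.15, SE 0.355).

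A score of each side, the mean over its tested genes of log2 CPM after subtracting the mean of each gene over the 10 libraries, sets constitutive against stress genes within a library. The constitutive minus stress difference was 0.14, -2.57, 2.21, -1.86 and -2.24 in WT replicates 1 to 5 and 0.83, -3.35, 2.73, 2.84 and 1.27 in NPYtet replicates 1 to 5. The groups overlapped, at -0.86 ± 2.02 and 0.86 ± 2.51 (SD, n = 5), and their difference of 1.73 was below both SDs. By label, it was 1.75 ± 1.203 in the 5 libraries labelled female and -1.75 ± 1.77 in the 5 labelled male. All 5 of the first were above 0 and 4 of the second below it, with NPYtet replicate 5 as the exception. NPYtet replicate 1, among the first at 0.83, is the library whose Xist and Ddx3y reads go against its label. The 2 sides contributed unequally. By label, the stress score was 3.48 higher in libraries labelled male and the constitutive score differed by -0.03. The 3.48 only describes the genes in the score, since 6 of the 12 passed the filter mainly through libraries labelled male. By genotype, the constitutive score was 0.67 higher and the stress score 1.06 lower in NPYtet. These genotype differences do not allow for the uneven sexes. Within libraries labelled female (2 WT, 3 NPYtet) and male (3 WT, 2 NPYtet), the NPYtet minus WT difference was 0.50 and 0.90 for the constitutive score, -0.46 and -0.28 for the stress score, and 0.96 and 1.18 for their difference. The fit by gene did not keep that sign for the stress side. Within libraries labelled female, 4 of 12 stress genes were higher and 8 lower in NPYtet, with a median log2 fold change of -0.655. Within those labelled male, 10 were higher and 2 lower, with a median of 0.367. For the constitutive minus stress score, leaving out any 1 library gave a genotype difference from 1.31 to 2.78 and a sex difference from -4.37 to -3.11.

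**Figure D4:**
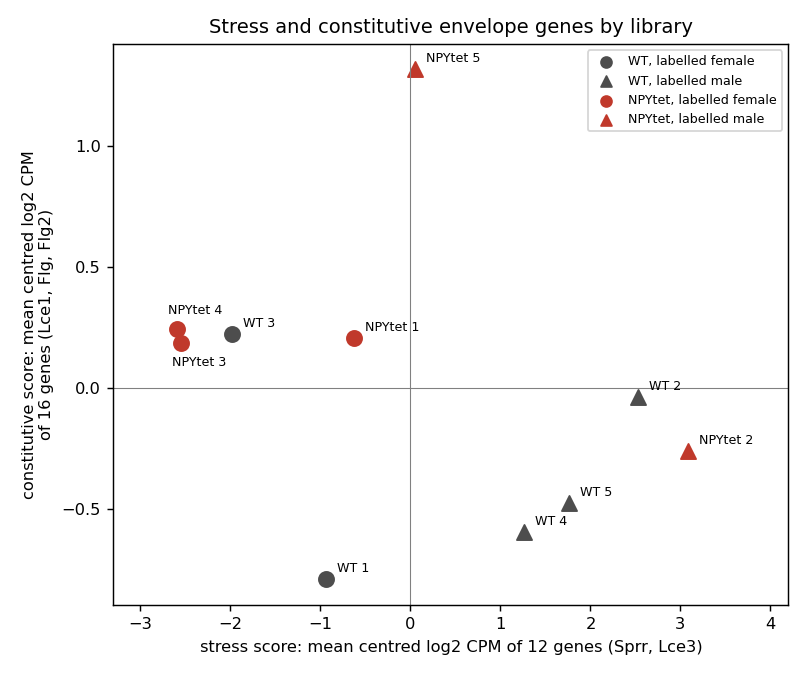
Stress score (x axis, 12 genes) against constitutive score (y axis, 16 genes) of each library, both as mean log2 CPM centred per gene; circles are labelled female and triangles male, dark grey is WT and red NPYtet. The stress scores of the libraries labelled female are all below 0, from -2.60 to -0.63, and those labelled male above it, from 0.05 to 3.08, while NPYtet replicate 5 is highest in the constitutive score at 1.31. Of the 12 stress genes, 6 passed the filter on low counts mainly through libraries labelled male. The score of -0.63 is that of NPYtet replicate 1, whose Xist and Ddx3y reads go against its label.

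Whether the genotype difference of envelope genes depended on the labelled sex was asked with an interaction term. It called 0 of 37 envelope genes in edgeR's test, against 0% of 18060 genes, and 0 with DESeq2 and limma voom. At an unadjusted p under 0.05, 2 genes had a larger NPYtet minus WT difference in libraries labelled male, against 1.41% of all genes, and 0 a smaller one, against 0.221%. These were Crnn (difference of log2 fold changes 7.78, SE 2.92) and Rptn (2.26, SE 0.961), each with an edgeR adjusted p of 1. Rptn had 34.6, 20.4, 6.49, 21.4 and 24.8 CPM in libraries labelled female and 13.8, 13.4, 9.35, 10.3 and 64.2 CPM in those labelled male, where 64.2 CPM is NPYtet replicate 5. Sprr2h had the next smallest p (3.65, SE 1.70) and its value was -0.65 without WT replicate 1.

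Genes that act with the envelope were read in the same fit by genotype, where 1.46% of all genes were higher and 2.14% lower at an unadjusted p under 0.05. Of 12 partners of the cornified envelope outside the cluster genes described here, 6 were higher and 6 lower in NPYtet, with 0 called and 1, Krtdap, at an unadjusted p under 0.05 (log2 fold change 1.22, SE 0.473). Of 13 genes for crosslinking and filaggrin processing, 6 were higher and 7 lower, with 0 called and 0 at an unadjusted p under 0.05 (edgeR). Casp14, the protease of filaggrin breakdown, came nearest (-1.05, SE 0.493). Of 34 regulators, 12 were higher and 22 lower, with 0 called, and Vdr, the vitamin D receptor (-0.79, SE 0.314), Ovol1 (-0.75, SE 0.326) and Satb1 (0.78, SE 0.36) had an unadjusted p under 0.05. The 4 stress keratins had a median of -0.32, with 0 called and 0 at an unadjusted p under 0.05, and all 7 tested cytokines of the list were higher with a median of 0.45, likewise with 0 called and 0 at that p.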

How the data were processed

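Whole-skin poly(A) RNA of 10 mice was measured, with group, replicate number and sex taken from the labels. Each file holds whole-number read counts per gene ID, as the authors deposited them. The submitters' processing notes name STAR 2.5.2, Trimmomatic 0.36, FastQC 0.11.8, bcl2fastq, DESeq2 1.30.1 and the build mm10, without giving their roles; no source used here gives the annotation release or the strand setting, so antisense partners cannot be told apart. IDs were matched to GENCODE M21 (49412 of 49671; the other 259 took 0.0189% of reads).

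Counts were fitted in R 4.3.3 with edgeR 4.0.16 (robust quasi-likelihood test, sex and genotype as terms, TMM scaling, filterByExpr with a minimum count of 10 and total of 15, which kept 18060 genes), with Benjamini-Hochberg adjustment over all of them and 0.05 as threshold. Log2 fold changes are NPYtet minus WT, or male minus female; the interaction came from a model with both terms and their product. CPM uses TMM-scaled library sizes, and log2 CPM has 2 as its prior count. Totals of 23209405 to 53357695 reads set the depth; 0 reads are compatible with up to 3, which covers counting error only. No pair of libraries of 1 group agreed within sampling noise. One library per mouse is as far as the labels go, so p-values measure the spread between these libraries.

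The members, the other gene lists and the alternatives were chosen with earlier results of these data known. Of 147 names in the other lists, 4 did not match. Per-library values are given for the 2 members of highest mean CPM and the 1 of smallest genotype p in each role group and for any with an unadjusted genotype p under 0.05; for sex and interaction, for the 3 of smallest p. Called members, Kprp, Ivl, Sprr1b, Crnn, Tchhl1 and Rptn were added after their values were seen, as were the called genes of the other lists. Promoters are from RefSeq; shared 75-base windows were counted in GENCODE M21 transcripts. The fit was tested on simulated counts. Alternatives were DESeq2 1.42.0, limma 3.58.1 voom with quality weights, other scalings and filters, no sex term, a replicate block, hair and keratinocyte scores as covariates, and leaving out libraries.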

Additional observations from a re-analysis of the deposited data

Results flagged for a closer look

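Each of the named envelope genes and the 3 scores was examined in each genotype group of 5 libraries for a highest or lowest library whose distance to the next exceeded 0.71 of the range of the group (Dixon's 95% value for 5, on log2(CPM + 0.05)). Of 60 such groups, 6 were picked out, where chance gives about 1 in 20. In 4 genes NPYtet replicate 5 lay far above the other mutants: Sprr4 at 531.8 CPM, Lce6a at 65.2 CPM, Lce1i at 110 CPM and Lce1j at 109 CPM. This is the library with 9.27% mitochondrial reads, 4.71% of reads at ribosomal loci and the lowest total. The part of these in the 4 values was not tested. Lce1m was far below the other mutants in NPYtet replicate 2, at 237 CPM. Sprr2h was far below the other wildtype libraries in WT replicate 3, at 0.517 CPM.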

How the results depend on the processing

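Envelope genes called by genotype numbered 0 in every alternative except no filter on low counts, which gave 3. Genes called by genotype over the whole table numbered 1, but 35 with DESeq2, 2 with limma voom, 409 with no filter, 0 without all 3 libraries that stand apart (WT replicate 2, NPYtet replicates 1 and 5), and 1 to 8 when 1 library was left out. Envelope genes called by sex (7) numbered 14 with DESeq2, 19 with limma voom, 3 with library size scaling, 20 of 45 tested with no filter (16 among the 37), 3 of 32 with a stricter filter (at least 1 CPM in 5 libraries), 2 with the hair score as a covariate, 11 of 41 without the 3 libraries (9 among the 37), and 1 to 14 when 1 was left out, with 37 or 40 tested. Genes called by sex (448) numbered 2316 with DESeq2, 5590 with limma voom, 217 with library size scaling (63 higher and the rest lower), 2380 with no filter, 20 with the hair score, 949 without the 3 libraries and 58 to 2725 when 1 was left out. The interaction called 3 envelope genes with no filter and 0 otherwise. The constitutive minus stress difference was not recomputed for DESeq2 or limma voom. In the alternatives where it was, it moved by less than the larger of the 2 group SDs. By genotype that SD, 2.51, exceeds the difference of 1.73 itself, so this measure cannot show that the direction was kept.

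Replicate numbers are shared between the groups. Correlations of the deviations of same-numbered libraries varied (-0.256, 0.304, 0.644, 0.093 and 0.076), and no WT library correlated best with the NPYtet library of its own number. The numbers were therefore not used to pair the mice in the main fit. These correlations cannot exclude a link between same-numbered mice. With a replicate block, 0 envelope genes and 0 genes were called by sex, and 0 envelope genes by genotype.

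Some named genes without a call turned direction by genotype. With the hair score as a covariate these were Sprr2d (-2.80), Sprr2e (-1.37), Sprr2h (1.24) and Lce3f (-1.03); with the keratinocyte score, Sprr2d (-0.62), Sprr2h (1.03) and Lce3d (0.41); with no sex term, Lce3c (-0.22) and Lce3f (-0.075). Sprr4 turned with limma voom (-0.58) and the replicate block (-0.06). Without WT replicate 2 and NPYtet replicate 5 together, Sprr4 (-0.54) and Lce3d (0.63) turned, and without all 3 libraries Sprr4 (-0.70), Lce3d (0.20) and Crct1 (-0.015). When 1 library was left out, the genotype value ran from -0.87 to 1.69 for Sprr2d, -0.18 to 1.93 for Sprr2e, -2.23 to 0.61 for Sprr2h, -0.57 to 0.67 for Sprr4, -0.45 to 0.57 for Lce3c, -1.65 to 0.26 for Lce3d and -0.20 to 0.87 for Crct1, and the interaction of Sprr2h from -0.65 to 4.84. The cause was not tested. By sex, none of the 7 called genes turned in any alternative; with the keratinocyte score as a covariate 11 of the 12 stress genes were higher. Depth limits the stress genes most: Sprr2e and Sprr2f had at most 10 reads in each library labelled female.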
